A study of Oryza sativa with 12 samples.

Results

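PTC1 (LOC_Os09g27620) and TDL1A (LOC_Os12g28750) are rice genes that act at opposite ends of the life of the tapetum, the innermost wall layer of the anther, which feeds the developing pollen. They are 2 of the 7087 loci listed in either of the study's 2 expression tables. The locus identifiers place PTC1 on chromosome 9 and TDL1A on chromosome 12. Both were chosen from the authors' calls of a difference between the nup1 mutant and wild type. Their levels in that comparison are therefore given as a description, with no test. TDL1A is in the tables of both stages, whereas PTC1 is in the stage 10 table alone, so its stage 11 level is not analysed here.

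The study sampled anthers of wild-type rice and of the nup1 mutant at stages 10 and 11. Each of the 4 combinations of genotype and stage had 3 biological replicates, giving 12 libraries. The labels do not name the cultivar, the mutated locus or the allele, and they do not say whether a replicate was a plant, a panicle or a separate collection. The p-values given for other genes therefore set a difference of means against the spread between these libraries, whatever its source. Those genes had already been called by the authors for the same comparison. Values are FPKM, which count sequenced fragments relative to transcript length and library size, and the number of fragments behind each value is unknown. Whole anthers were used, so fewer tapetal cells and less transcript per tapetal cell cannot be told apart.

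TDL1A is a small secreted protein that binds the receptor kinase MSP1. In rice, signalling through this receptor restricts how many cells become spore mother cells and lets the neighbouring cells form the anther wall, tapetum included, so it is best known for its part early in anther development. PTC1 is a nuclear protein with a PHD finger, a zinc-binding fold that in many proteins reads histone tails, and is the rice counterpart of Arabidopsis MS1. It is known for its part late in tapetal life. Rice plants that lack PTC1 do not carry out timely programmed death of the tapetum, and their pollen aborts.

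PTC1 was low in wild-type anthers at stage 10 and far higher in nup1. Its wild-type libraries held 1.70, 0.309 and 1.35 FPKM in replicates 1 to 3. Its nup1 libraries held 25.4, 32.6 and 28.9 FPKM. Every nup1 library was far above every wild-type library, and the genotypes did not overlap. The means were 1.12 ± 0.723 FPKM in wild type and 29.0 ± 3.63 FPKM in nup1 (SD, n = 3 each), a 25.9-fold ratio of means. On the scale of log2(FPKM + 1), which understates changes of low values, the difference was 3.88 ± 0.31 (SE). Wild-type replicate 2 was the lowest by a wide margin, and without it the ratio of means was 19.0-fold and the log2 difference 3.56.

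Being listed as higher is what put PTC1 among the genes described, so its rank is only a description. Of the 1889 fitted genes with a positive difference at stage 10, 46 had a larger one, or 2.44%. In wild type its mean level exceeded that of 13.1% of the 3358 fitted genes, and in nup1 that of 79.4%. Separation of all 3 nup1 libraries above all 3 wild-type libraries was common in this table of called genes, at 52.9% of fitted genes.

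TDL1A at stage 10 differed little between the genotypes outside a single library. Its wild-type libraries held 2.22, 9.63 and 3.04 FPKM in replicates 1 to 3. Its nup1 libraries held 1.59, 2.01 and 3.04 FPKM. The groups overlapped: nup1 replicate 3 lay above wild-type replicate 1 and within rounding of wild-type replicate 3, and only wild-type replicate 2 stood clear of every nup1 library. The authors' deposited table gives TDL1A as lower in nup1 at this stage. The means were 4.96 ± 4.06 FPKM in wild type and 2.21 ± 0.745 FPKM in nup1 (SD, n = 3 each), a 2.24-fold ratio of wild type over nup1. The log2 difference was -0.71 ± 0.43 (SE). Without wild-type replicate 2 the wild-type mean was 2.63 FPKM, the ratio 1.19-fold and the log2 difference -0.19 ± 0.25.

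At stage 11 TDL1A was far lower in the mutant, in every library. Its wild-type libraries held 20.6, 17.8 and 16.2 FPKM in replicates 1 to 3. Its nup1 libraries held 1.52, 1.11 and 0.613 FPKM. The lowest wild-type library was still far above the highest nup1 library. The wild-type replicates lay close together, while the low nup1 values fell from 1.52 FPKM in replicate 1 to 0.613 FPKM in replicate 3. The means were 18.2 ± 2.22 FPKM in wild type and 1.08 ± 0.456 FPKM in nup1 (SD, n = 3 each), a 16.8-fold ratio. The log2 difference was -3.22 ± 0.23 (SE), and it ranged from -3.37 to -3.05 when each library was left out in turn. At this stage 57.6% of the 4992 fitted genes had all nup1 libraries below all wild-type libraries, and 261 of the 2940 with a negative difference had a larger one.

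**Figure D1:**
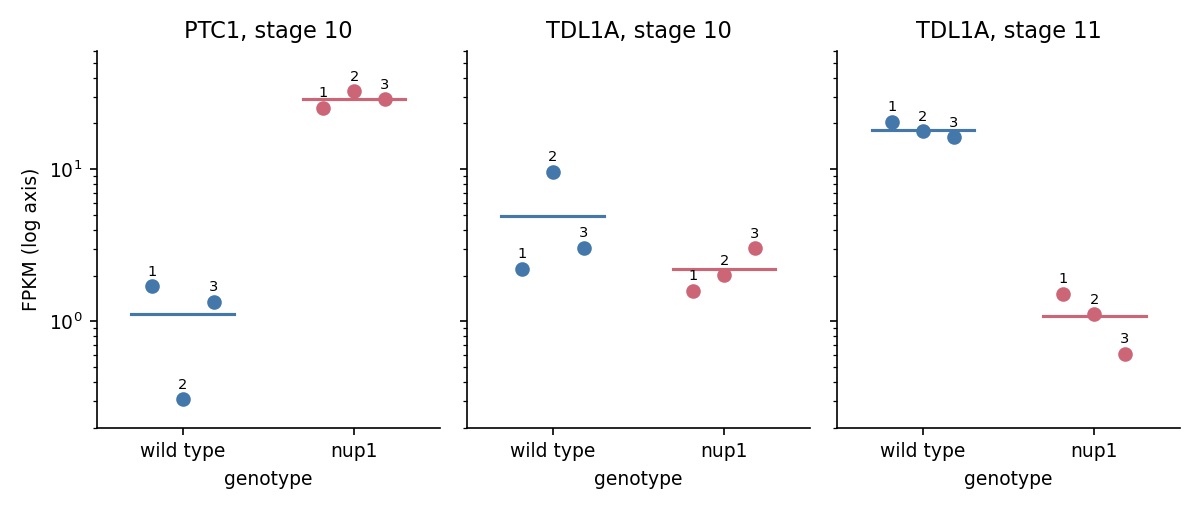
FPKM of PTC1 and TDL1A in each library (points, numbered by replicate) with the group mean (line), on a shared log axis, for wild type and nup1. PTC1 at stage 10 and TDL1A at stage 11 show separate groups, while for TDL1A at stage 10 wild-type replicate 2, at 9.63 FPKM, stands clear of the nup1 range and replicate 3, at 3.04 FPKM, lies level with its top.

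Placed in order of mean level, TDL1A was highest in wild type at stage 11, then in wild type at stage 10, in nup1 at stage 10 and in nup1 at stage 11. The stage 10 groups, neighbours in that order, overlapped in FPKM, and their difference was not tested. On the log2 scale that difference was -0.71 ± 0.43 (SE), -0.91 ± 0.39 under median centring and -0.996 ± 0.401 under quantile normalization. With each library left out in turn it ranged from -1.05, without wild-type replicate 1, to -0.19, without wild-type replicate 2. Nothing in the sources shows that the 2 tables were scaled together, so levels from different stages stand side by side without a test. Between the tables the wild-type mean went from 4.96 to 18.2 FPKM and the nup1 mean from 2.21 to 1.08 FPKM. The difference between genotypes at stage 11 minus that at stage 10 was -2.51 ± 0.54 (SE) on the log2 scale. This contrast was not tested, because the calls of both stages chose the gene. Without wild-type stage 10 replicate 2 it was -3.03.

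Because PTC1 and TDL1A were read in the same libraries, the ratio of their FPKM is free of any scaling of a whole library. PTC1 was below TDL1A in every wild-type library at stage 10, at 0.765, 0.0321 and 0.445 times its FPKM in replicates 1 to 3. It was above TDL1A in every nup1 library, at 16.0, 16.2 and 9.51 times its FPKM. The order of the genes was thus opposite in the genotypes, with no library in between. The authors had called PTC1 higher and TDL1A lower in nup1 in these same libraries. A higher ratio in nup1 therefore followed from the choice of genes and is a description. With a pseudocount of 1 FPKM, which such scaling can affect, the log2 ratio averaged -1.35 ± 1.47 in wild type and 3.24 ± 0.31 in nup1 (SD, n = 3 each). The genotypes differed by 4.59 ± 0.87 (SE) in this log2 ratio, of which 3.88 was the difference of PTC1, and by 3.76 without wild-type replicate 2.

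Wild-type replicate 2 had the highest TDL1A and the lowest PTC1 of its group, and the same held widely in the stage 10 table. Among the 1942 loci that the authors' deposited table gives as higher in nup1, it was the lowest wild-type library in 59.3%. Among the 1511 given as lower, it was the highest in 79.4%. It differed over 2-fold from both other wild-type libraries in 8.43% of fitted genes, against 0.566% for replicate 1 and 4.94% for replicate 3.

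The TDL1A level of this library, 9.63 FPKM, lay between those of the other stage 10 wild-type libraries and the stage 11 ones. Over 1405 genes fitted at both stages, its log2 deviation from replicate 1 was set against the wild-type stage 11 mean minus replicate 3, so that no library entered both. Pearson's r across genes was 0.673, and with replicates 1 and 3 exchanged it was 0.543. For replicate 3 minus replicate 1, set against stage 11 minus replicate 2, r was 0.0183. This last r has replicate 2 as the baseline of the stage difference, so it is not a like comparison with the r values before it. Genes are not independent replicates, all of these genes had been called at both stages, and the part of this library's position in the TDL1A and PTC1 values was not tested.

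The loci whose profiles were nearest to each gene were found by the root mean square distance of log2(FPKM + 1), centred on each locus's mean within a stage. This likeness describes libraries dominated by the difference between genotypes. For PTC1, over 6 libraries and 3357 other genes, the 5 nearest loci lay at distances of 0.225 to 0.273 with r of 0.991 to 0.996. The nearest, LOC_Os03g18250, had a wild-type mean of 0.946 ± 0.602 FPKM and a nup1 mean of 29.4 ± 7.77 FPKM. The second, LOC_Os08g34360, had means of 1.66 ± 1.03 and 31.0 ± 9.22 FPKM. In all 5, as in PTC1, wild-type replicate 2 was the lowest wild-type library. The loci were chosen over these same libraries, so the choice favours this match and it is no separate evidence. The files and the reference table do not pair these identifiers with names.

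Among genes with a symbol in the lists used here, those nearest to PTC1 were some of the pollen wall genes, from a list with 13 members at this stage. ABCG15, an anther lipid transporter, was in place 35 at a distance of 0.478. DPW, an acyl reductase, and ACOS12, an acyl-CoA synthetase, which both make precursors of sporopollenin, the polymer of the pollen wall, followed in places 52 and 55. The cysteine protease CP1 was in place 67. CYP703A3 and TKPR1, of the pollen wall list, were in places 85 and 87. Other pollen wall genes were far from PTC1 by this distance, which also counts the size of a change. NP1 and PKS2 were in places 1372 and 1861, though their r with PTC1 was 0.909 and 0.985. For ABCG15, DPW and ACOS12 r was 0.974, 0.981 and 0.974. The 4 members of that list given as lower in nup1 were in places 2139 to 3356, with r of -0.99 to -0.95. TDL1A itself was in place 2090 from PTC1, with r of -0.65 over the 6 libraries.

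For TDL1A at stage 10 alone, the 5 nearest of 3357 loci lay at distances of 0.0807 to 0.223. In all 5, wild-type replicate 2 was the highest wild-type library. That library made the largest deviation in the TDL1A profile at this stage, so loci chosen as near were bound to share it. Over all 12 libraries and 1404 other genes the distances were 0.273 to 0.309, with r of 0.970 to 0.978. The nearest, LOC_Os01g42990, had means of 10.7 ± 6.41 FPKM for wild type and 4.15 ± 0.897 FPKM for nup1 at stage 10, then 20.6 ± 1.31 and 2.08 ± 0.650 at stage 11. The next, LOC_Os05g47890, was far more abundant, at 204 ± 85.0 and 88.4 ± 3.55 FPKM and then 351 ± 8.55 and 48.7 ± 10.3 FPKM. The nearest gene with a symbol at stage 10 alone was a Rubisco small subunit, LOC_Os12g19470, in place 101. Over the 12 libraries and at stage 11 it was ABCG26, a transporter needed for the pollen wall and anther cuticle, in place 45 and in place 152 of 4991; at stage 10 alone ABCG26 was in place 224.

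**Figure D2:**
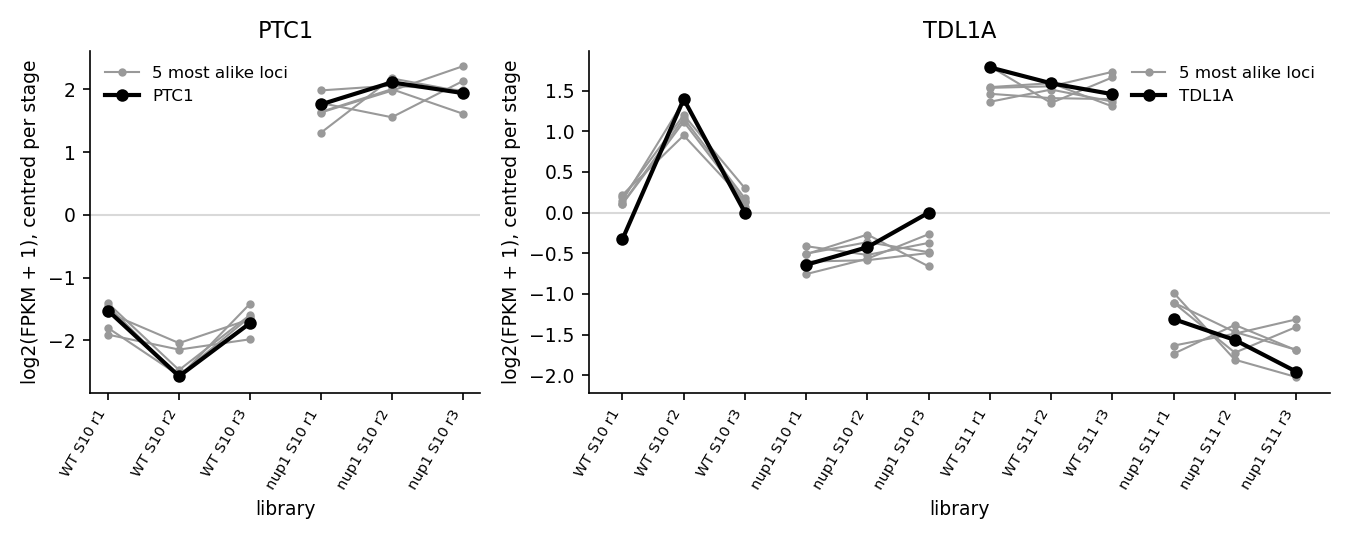
Log2(FPKM + 1) of PTC1 over 6 stage 10 libraries and of TDL1A over 12 libraries (black), each with its 5 nearest loci (grey), centred on each locus's mean within a stage. Lines join the replicates of a group for 1 locus and carry no order. Wild-type stage 10 replicate 2 is the lowest of its group for PTC1 and the highest for TDL1A. So it is in all 5 loci of each panel, which were chosen for likeness over these same libraries.

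The receptor side of the TDL1A pathway was not in the tables. The list of tapetum regulators has 12 genes, and at stage 10 it had PTC1 and TDL1A listed and 10 not listed, among them the receptor MSP1, the related ligand TDL1B, the co-receptor kinases SERK1 and SERK2 and the factors UDT1 and GAMYB. Such genes are not analysed here, since both tables hold only loci called by the authors. At stage 11 it had 4 listed, all given as lower, and the 3 besides TDL1A passed limma's threshold of an adjusted p under 0.01 with a fold over 2. Of all fitted genes at this stage, 46.0% passed as lower.

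Those 3 are bHLH factors that act in sequence in the tapetum, TIP2 with TDR and then EAT1. EAT1, which in rice switches on tapetal aspartic proteases, held 42.6, 30.2 and 30.0 FPKM in wild type and 8.24, 1.60 and 0.673 FPKM in nup1. Its log2 change was -3.35 ± 0.58 (SE, limma adjusted p = 0.0013), beside -3.22 for TDL1A. The EAT1 change was -4.06 without nup1 replicate 1 and -2.83 without nup1 replicate 3. TDR held 81.0 to 99.0 FPKM in wild type and 17.3 to 44.7 in nup1, with a change of -1.58 ± 0.32 (limma adjusted p = 0.00245). TIP2 changed by -1.01 ± 0.21 (limma adjusted p = 0.00311), and did not pass with any wild-type library left out, with nup1 replicate 3 left out, or under median centring and quantile normalization (limma adjusted p of 0.00288 to 0.0354 over all alternatives). In nup1 at stage 11, replicate 1 was the highest and replicate 3 the lowest library for TDL1A, TDR, TIP2 and EAT1 alike. The whole libraries ran in the same order, with summed FPKM of listed loci of 147954, 137137 and 125358 in replicates 1 to 3. Their listed loci at 0 numbered 20, 96 and 184. The share of fitted genes with this order was not taken, and its source was not tested.

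Proteases of tapetal cell death stood higher in nup1 at stage 10, beside PTC1. The tapetal death list has 4 members, of which the 3 proteases AP25, AP37 and CP1 were listed and API5 was not. All 3 passed as higher, where 39.8% of fitted genes did. The aspartic protease AP37 held 1.07, 1.24 and 2.00 FPKM in wild type and 134, 170 and 245 FPKM in nup1, without overlap. CP1 changed by 2.86 ± 0.36 (limma adjusted p = 0.000206) and the aspartic protease AP25 by 2.22 ± 0.49 (limma adjusted p = 0.00272). The AP25 call ended without nup1 replicate 2 and without nup1 replicate 3 (limma adjusted p of 0.000787 to 0.0126 over all alternatives). At stage 11 AP25 and CP1 were listed and did not pass (limma adjusted p = 0.34 and 0.213). Both were far higher in nup1 replicate 1 than in the other nup1 libraries, AP25 at 68.6 against 7.33 and 3.27 FPKM, and without it the AP25 change was -0.24.

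**Figure D3:**
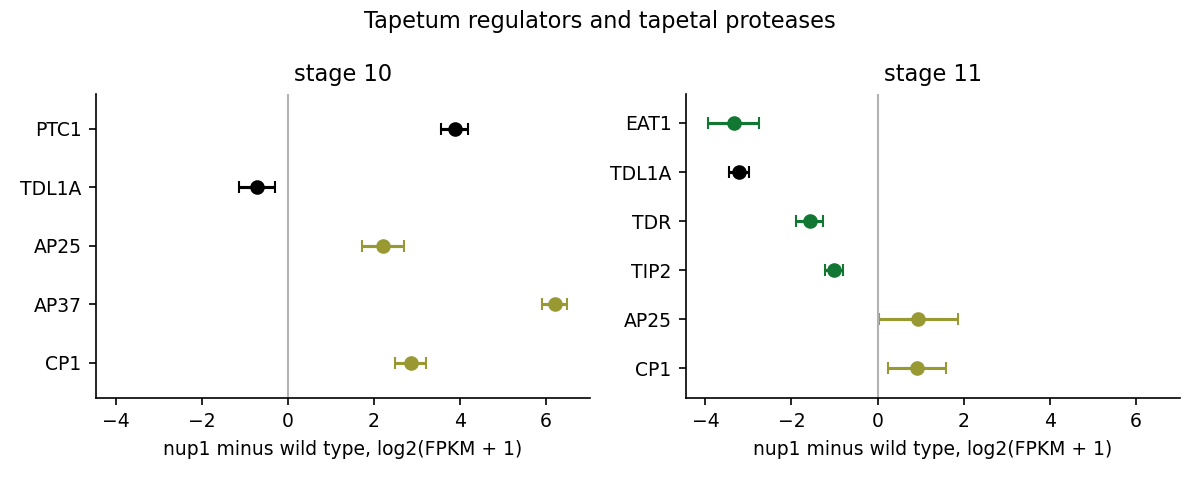
Difference of mean log2(FPKM + 1), nup1 minus wild type, with its SE, for the listed tapetum regulators (PTC1 and TDL1A in black, others in green) and tapetal proteases (olive) at each stage, 3 libraries per genotype. At stage 10 PTC1 and the 3 proteases lie right of 0, and at stage 11 the 4 regulators lie left of it.

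Genes of the pollen wall list, made largely in the tapetum, gave 13 of 14 members listed at stage 10, of which 9 passed as higher and 3 as lower, where 39.8% and 33.1% of all fitted genes did. Their median log2 difference was 2.99, where the median of all fitted genes was 0.85. The largest rise was that of the polyketide synthase PKS2, at 7.27, and the largest fall that of the fertility gene RTS, at -9.08. The RTS value was -10.28 without nup1 replicate 2 and -8.25 without nup1 replicate 3. At stage 11 the list had 7 members listed, 0 passed as higher and 4 as lower, against 26.3% and 46.0% of all fitted genes. Under median centring or quantile normalization 2 passed as lower. CYP704B2, a fatty acid hydroxylase and the member listed as higher, held 90.6 FPKM in nup1 replicate 1 but 0.973 and 1.45 FPKM in the other nup1 libraries. Their median was -1.56, where that of all fitted genes was -0.98.

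Other tissues and cell types could hold part of these reads, and apart from the late pollen list their lists were sparsely covered. Of all fitted genes, 33.1% passed as lower at stage 10 and 46.0% at stage 11. Both genes of the late pollen list, the sugar transporter MST8 and the cell wall invertase INV4, were listed and passed as lower at both stages. Nothing here shows that their reads come from pollen alone, so they do not measure pollen content. In sum they held 112 to 364 FPKM in wild type and 1.17 to 3.52 in nup1 at stage 10, and 410 to 443 and 2.27 to 12.3 FPKM at stage 11. INV4 at stage 10 did not pass with any 1 of the nup1 libraries left out (limma adjusted p of 0.000469 to 0.0177 over all alternatives). At stage 10 the lists of stamen identity and other floral organs had 0 of 5 and 0 of 3 members listed, the meiosis list 1 of 6 (MEL2, at 4.49 to 5.94 FPKM in wild type and 2.00 to 2.79 in nup1) and the green tissue list 3 of 7 (205 to 367 and 265 to 342 FPKM in sum). Within that sum the Rubisco small subunit LOC_Os12g19381 passed as lower, at -1.39 on the log2 scale, and the light-harvesting protein LOC_Os03g39610 passed as higher, at 1.28, while LOC_Os12g19470, another small subunit, was at -0.99 and did not pass. The first did not pass without nup1 replicate 2 or 3, nor the second without replicate 1 or 3 of either genotype. With so few stamen identity genes listed, the anther identity of the samples could not be checked against its defining markers in these tables. At stage 11, where TDL1A was lower in nup1, the sums of listed members of these 4 lists were lower too. The stamen identity list had 1 of 5 listed, MADS4, at 80.1 to 97.8 FPKM in wild type and 35.3 to 42.2 in nup1. The floral organ list had 1 of 3, the ovule gene MADS13, at 24.9 to 37.7 and 2.17 to 10.1 FPKM. The meiosis list had 3 of 6, summing to 14.5 to 18.7 FPKM in wild type and 4.88 to 6.10 in nup1. Within it ZEP1, of the synaptonemal complex, went the other way, at 0.808 to 1.22 FPKM in wild type and 1.68 to 2.15 in nup1. Its log2 difference of 0.54 did not pass, though it passed under quantile normalization, at 1.06 (limma adjusted p of 0.00112 to 0.0788 over all alternatives). The green tissue list had 3 of 7, summing to 701 to 1324 and 407 to 608 FPKM. None of the listed members of these 4 lists was at 0 in any library. The summed FPKM of listed loci was 142003 to 182631 in wild type and 121242 to 137071 in nup1 at stage 10, and 209625 to 227419 and 125358 to 147954 at stage 11, without overlap at either stage. The part of these shifts in the TDL1A values was not tested.

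The sign of each difference held under the other scalings, and its size moved. Limma called 72.9% of fitted genes at stage 10 (1338 higher, 1111 lower) and 72.3% at stage 11 (1315 higher, 2295 lower). Centring each library on the median of listed genes removed a shift between genotypes of 0.20 at stage 10 and -0.44 at stage 11 on the log2 scale, and turned these splits to 962 against 1319 and 1880 against 1254. After that step PTC1 differed by 3.68 and TDL1A by -0.91 at stage 10, and TDL1A by -2.78 at stage 11. All loci in the tables had been called as changed, so that step moves the balance by itself.

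**Figure D4:**
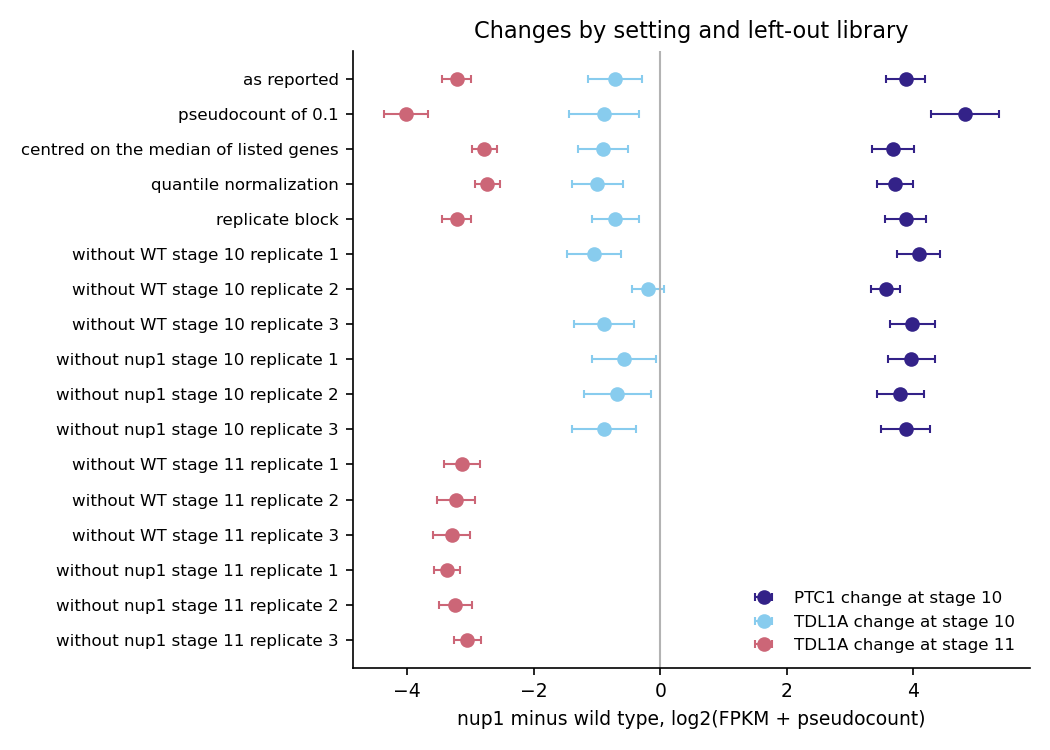
Difference of mean log2 level, nup1 minus wild type, with its SE, for PTC1 and TDL1A under each setting and with each library left out. PTC1 stays between 3.56 and 4.82, TDL1A at stage 11 between -4.02 and -2.74, and TDL1A at stage 10 comes nearest to 0, at -0.19, without wild-type replicate 2.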

How the data were processed

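Anther poly(A) RNA was sequenced. Per the labels' protocols and the design text, the authors mapped reads to MSU rice release 7 by HISAT2 and used Cufflinks for quantification and calls (FDR < 0.01, fold > 2). No tool version or strand setting is given in the sources used here. The authors deposited FPKM per library in 2 tables, 1 per stage, holding called genes only. All 12 libraries were used.

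Within a stage, log2(FPKM + 1) was fitted with limma 3.58.1 (R 4.3.3, mean-variance trend) over genes averaging 1 FPKM or more, 3358 and 4992. A gene passed if its Benjamini-Hochberg adjusted p over all fitted genes was under 0.01 and its fold over 2. A refit of called genes does not test the calls independently. The code was tested on simulated data in which a minority of genes changed and all genes had the same spread. Most fitted genes passed in the real data, so that test checks the code and not its error rate here. Ratios of low FPKM between 2 libraries of a group were set against small whole-number fractions, over 71 to 153 genes. At the best-fitting shift 11.8% to 50.9% of them fell on such fractions. No chance level was taken, and counts were not recovered. FPKM share a total, so abundant transcripts that fall raise the rest.

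Members and lists were chosen with earlier results of these data known. Of 53 list loci, named from memory, 32, PTC1 and TDL1A among them, match a symbol of the reference table (ASM3414082v1) by chromosome and 21 match none. The text names PTC1, TDL1A, listed regulators and proteases, up to 2 examples of other lists, and nearest loci; other names were chosen after their values were seen. Alternatives were a pseudocount of 0.1, no filter, median centring, quantile normalization, a replicate block and leaving out each library. No sequence was used here.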

Additional observations from a re-analysis of the deposited data

How the results depend on the processing

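PTC1 and TDL1A kept their sign under every alternative run. A pseudocount of 0.1 moved PTC1 to 4.82, TDL1A at stage 11 to -4.02, its contrast between stages to -3.13 and the PTC1 to TDL1A log2 ratio difference to 5.71, since it compresses low values less. Median centring moved TDL1A at stage 11 to -2.78 and its contrast to -1.87, and quantile normalization moved them to -2.74 and -1.75. With each library left out in turn, PTC1 ranged from 3.56 to 4.09, TDL1A from -1.05 to -0.19 at stage 10 and from -3.37 to -3.05 at stage 11, its contrast from -3.03 to -2.17 and the ratio difference from 3.76 to 5.14. The counts of passing genes were 1683 to 2586 at stage 10, against 2449, and 2840 to 3586 at stage 11, against 3610. The lowest, 1683, came without nup1 stage 10 replicate 3.

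Samples share replicate numbers. At stage 10 the deviations of same-numbered libraries correlated at 0.0382 to 0.251, and 4 of 6 libraries correlated best with their own number. These values do not decide whether the stage 10 libraries pair. At stage 11 the deviations did not pair, at -0.229 to 0.0825, with 2 of 6 libraries best with their own number. With the replicate block, 2499 and 3472 genes passed, and TDL1A at stage 10 stayed at -0.71 with an SE of 0.37. TIP2 did not pass with the block (limma adjusted p = 0.0102, 0.00288 to 0.0354 over all alternatives). Alternatives for the other tapetal genes and for list counts were added after the data were seen. With each library left out, the stage 11 change of AP25 ranged from -0.24, without nup1 replicate 1, to 1.78. Pollen wall genes passing at stage 11 numbered 5 without that library, 3 without any other library and 2 under median centring or quantile normalization, against 4, and without wild-type replicate 2 the 3 list counts at stage 10 were as before. Low FPKM limits what can be read from PTC1 in wild type and TDL1A in nup1, whose fragments are unknown.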
